A study of Mus musculus with 9 samples.

Results

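Labial mucosa of 2 mouse strains, labelled Tac111 and B6, was compared by bulk sequencing of polyadenylated RNA. The comparison rests on 6 of the 9 libraries of the series, chosen by their labels alone: Tac111 replicates 1, 2 and 3 and B6 replicates 1, 2 and 3. A further strain, Tac146, was used in a single alternative fit. Every library came from a biopsy of the labial part of the oral mucosa, and all mice had been infected before it was taken. The sources used here do not give the agent, its dose, the time after infection or the age of the mice, and they name the mutations only through the strain names. ILC1 (type 1 innate lymphoid cells) is the cell type on the B6 labels and T cells that on the Tac111 labels, which means that the strain and the cell type named cannot be told apart. Whether each library is a separate animal is not stated in the labels, and p-values therefore cover only the spread among these samples, part of which may be technical.

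The lining of the lip is a stratified squamous epithelium over a connective tissue that holds blood vessels, nerves, muscle and resident immune cells. Its lymphocytes include T cells, which carry the CD3 complex, and innate lymphoid cells, which do not, and both depend on the common gamma chain (encoded by Il2rg) to receive signals from interleukins such as IL-2, IL-7 and IL-15. Cytokines from such cells act on the epithelium around them. Interferons induce antiviral and antigen presentation genes, whereas IL-4 and IL-13 induce a different set through STAT6.

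The libraries held transcripts of whole mucosa rather than of an isolated lymphocyte. Krt4, a keratin of the upper layers of oral epithelium, was measured at 23222, 30895 and 43466 CPM (the count scaled for library size with TMM factors) in B6 replicates 1, 2 and 3 and at 24782, 29109.9 and 29323 in the Tac111 replicates, in the same order. Not a single count of Cd3d, Cd3e or Cd3g, which encode the CD3 complex, was found in a Tac111 library, so the Tac111 libraries are called by their strain and not as T cells. A total of 3 counts over the strain is the limit that 0 counts allow, for counting error only. Ncr1, which encodes the NK cell receptor NKp46, was counted 7, 13 and 10 times in the B6 replicates and 0, 0 and 0 times in those of Tac111. Total expected counts ran from 28065745 to 40873064 in B6 and from 27192359 to 35955305 in Tac111. Along the first principal component, which held 54.9% of the variance, B6 lay at 22.1 to 36.5 and Tac111 at -34.5 to -26.5. The second held 15.6% and set Tac111 replicate 3 (-28.6) apart from Tac111 replicates 1 and 2 (22.1 and 10.5). In whole tissue, fewer cells of a type and less RNA per cell cannot be told apart, which holds for every cell type marker below.

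Of 16133 genes tested, 311 were higher in Tac111 (1.93% of those tested) and 571 were lower (3.54%), which makes 882 called genes (5.47%) at an edgeR adjusted p below 0.05. Of the called genes, 382 differed by more than 2-fold, 118 of them higher and 264 lower, and the median log2 fold change of all tested genes was 0.02. The largest falls belonged to immune cell genes and to epithelial genes that IL-4 and IL-13 induce, and the rises included hair shaft proteins and noncoding host genes of RNA processing. Levels in Tac111 and B6 did not overlap for 4787 genes (29.7%), so a lack of overlap alone is common here, and every gene named below as having risen or fallen had it. Leaving out 1 library gave between 365 called genes (without Tac111 replicate 2) and 992 (without B6 replicate 1). It also gave 379 without B6 replicate 2 and 464 without B6 replicate 3. Each left-out library that ended the call of a gene is named after that gene, with the edgeR adjusted p of that fit in brackets, and likewise where adding the 3 Tac146 libraries to the fit ended it.

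**Figure D1:**
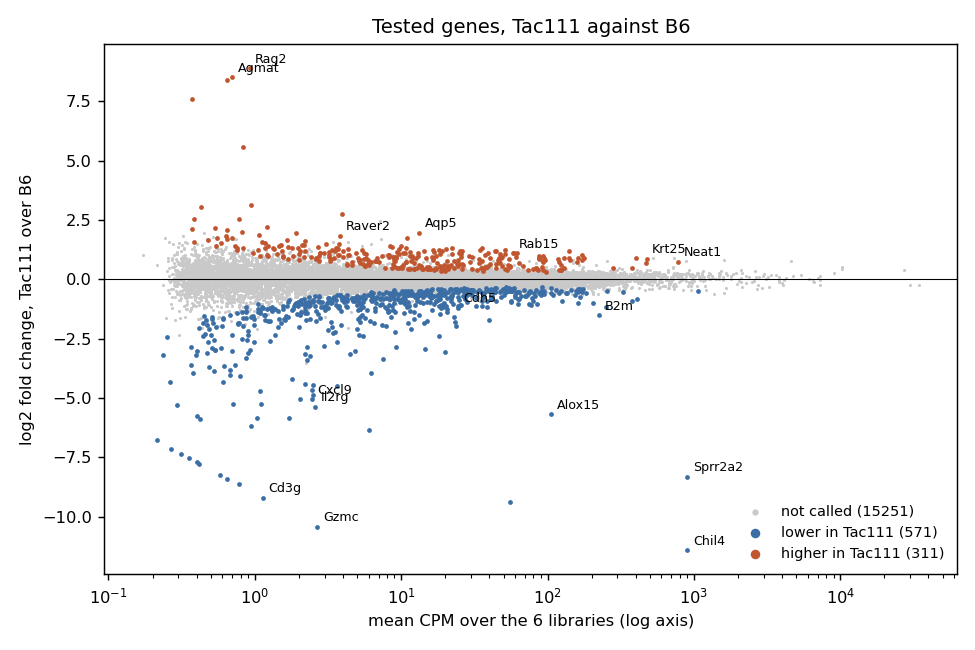
Log2 fold change of Tac111 over B6 against mean level for the 16133 tested genes, with the level as a log scale of CPM. Each point is a gene, grey where it was not called, and the 311 genes called higher and the 571 called lower are coloured. The falls reach further from 0 than the rises.

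To describe the called genes by cell type and pathway, 95 lists of genes were used, whose members that could be tested numbered 2062. The lists held 307 of the called genes, 55 higher and 252 lower, and 575 called genes were in no list. In 53 lists members were lower and none was higher, in 11 lists members were higher and none was lower, 10 lists had both, and 21 had no called member. More than 50% of the tested members were lower in 7 lists, against 3.54% of all genes tested. These were the lists for pan-leukocyte, ILC1 and NK cell, gamma delta T cell and eosinophil markers, for the type I interferon and interferon gamma responses, and for MHC class II presentation. The gamma delta T cell and eosinophil lists were small, with 5 and 4 tested members, 3 of each lower. Those of the eosinophil list were Ear2, Alox5ap and Alox15, and Alox15 is also in the IL-4 and IL-13 list. Alox5ap was not called without Tac111 replicates 1 or 2 or B6 replicates 1 or 2 (0.0686 to 0.107). With the Tac146 libraries added, 2 members of the eosinophil list were lower.

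**Figure D2:**
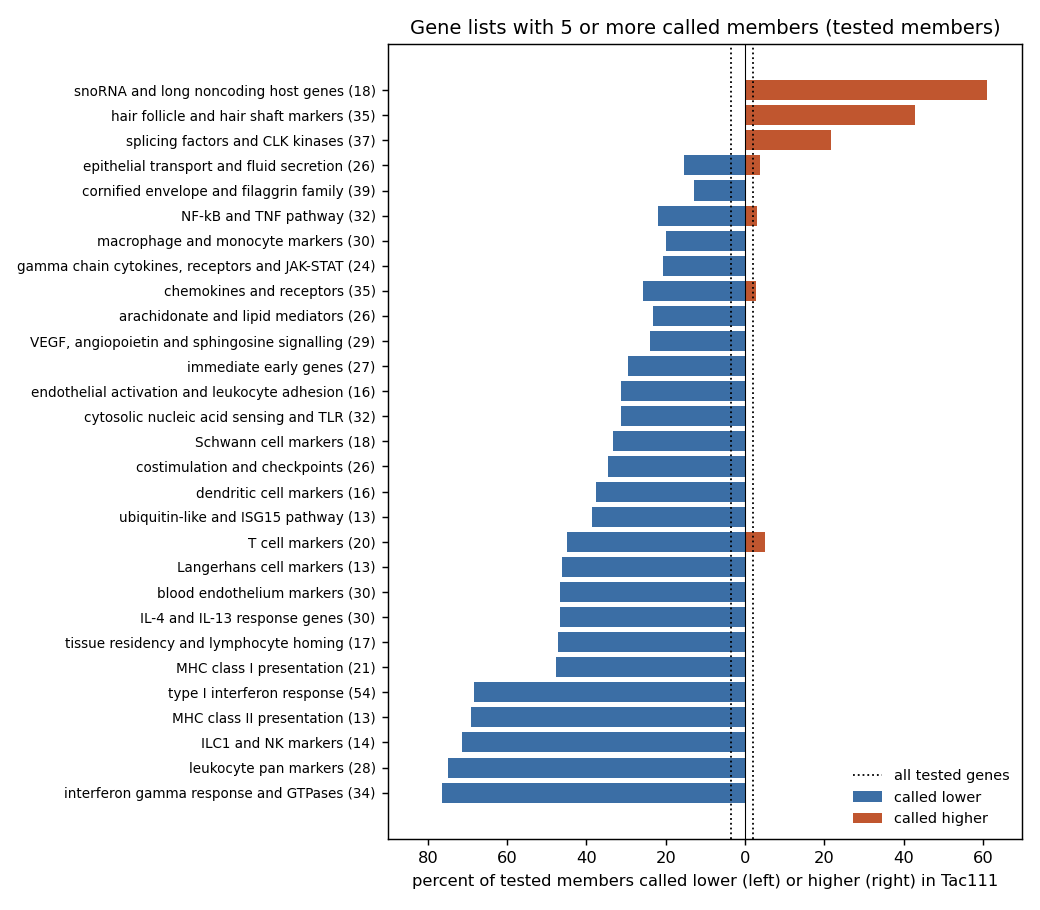
Percent of the tested members of each gene list called higher or lower in Tac111, for lists with 5 or more called members, with the dotted lines at the percent of all tested genes called in each direction (1.93% higher and 3.54% lower). Interferon, leukocyte and antigen presentation lists lie on the lower side, and the lists of noncoding host genes and hair shaft genes on the higher side.

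The genes that encode the receptor subunits of lymphocytes were among those that differed most. Il2rg (chromosome X, 101264378 to 101268255), the common gamma chain, was measured at 5.17, 5.16 and 4.81 CPM in B6 and at 0.128, 0.109 and 0.116 in Tac111 (edgeR log2 fold change -5.37 with SE 0.24 and adjusted p = 3.26e-06). Il2rb, the beta chain shared by the receptors for IL-2 and IL-15, was at 2.99, 2.79 and 4.25 CPM in B6 and 0.0321, 0.145 and 0 in Tac111 (edgeR log2 fold change -5.85 with SE 0.51 and adjusted p = 3.31e-04). The separation of the strains was complete for both genes. Rag2, which encodes part of the enzyme that joins antigen receptor segments, went the other way. It had no count in B6 and was counted 51, 47 and 75 times in the Tac111 replicates, which is at least 62.3-fold higher against a floor of 3 counts over the strain (edgeR adjusted p = 5.22e-04). Its partner Rag1 had 3 counts over the B6 libraries and 4 over the Tac111 libraries.

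Among T cell markers, 9 of 20 tested members fell and 1 rose, with a median log2 fold change of -1.40. Cd3g was at 2.39, 2.02 and 2.42 CPM in B6 and 0 in every Tac111 library, at least 71.3-fold lower (edgeR adjusted p = 2.72e-04). On the same floor Cd3e was at least 41.6-fold lower, Cd3d at least 25.6-fold and Cd6 at least 13-fold. Lck, a kinase that acts below the T cell receptor, was at 1.98, 1.29 and 1.83 CPM in B6 and 0.225, 0.326 and 0.262 in Tac111 (edgeR log2 fold change -2.65 with SE 0.31 and adjusted p = 0.00153). The constant segment Trbc2 was an exception, at 7.65, 6.38 and 5.28 CPM in B6 and 5.56, 6.91 and 7.69 in Tac111, and did not pass the test (log2 fold change 0.06, edgeR adjusted p = 0.864). Lef1, the T cell marker that rose (edgeR log2 fold change 0.83 with SE 0.17 and adjusted p = 0.0222), is also a transcription factor of the hair follicle. Lef1 was not called without Tac111 replicates 1 or 2 or B6 replicates 2 or 3 (0.0576 to 0.0966) or with the Tac146 libraries added (0.204).

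ILC1 and NK cell markers fell in 10 of 14 tested members and rose in none, with a median of -2.04. Gzmc, a granzyme of cytotoxic lymphocytes, was at 4.47, 4.67 and 6.91 CPM in B6 and had no count in Tac111, at least 163-fold lower (edgeR adjusted p = 1.26e-04). Nkg7, a cytotoxic granule protein, was at least 47.5-fold lower, and Xcl1, a chemokine that attracts cross-presenting dendritic cells, at least 35.8-fold lower. Klrk1, the activating receptor NKG2D, fell from 1.48, 1.29 and 1.73 CPM in B6 to 0.353, 0.253 and 0.262 in Tac111 (edgeR log2 fold change -2.36 with SE 0.29 and adjusted p = 0.00204). Klrb1b, an inhibitory lectin-like receptor, had a log2 fold change of -1.73 (edgeR adjusted p = 0.00218). Tbx21, the transcription factor T-bet of ILC1 and type 1 helper cells, was at 1, 0.976 and 1.2 CPM in B6 and 0.706, 0.543 and 0.699 in Tac111, and its difference did not pass the test (edgeR log2 fold change -0.69 with SE 0.26 and adjusted p = 0.15). Transcripts of Ifng numbered 4 over the B6 libraries and 0 over the Tac111 libraries, too few to be tested.

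The list for tissue residency and homing of lymphocytes had 8 of 17 tested members lower and none higher, and the number lower was 5 without Tac111 replicate 2 and 5 without B6 replicate 2. Itgae, the alpha chain of the integrin that binds E-cadherin on epithelium, was at 4.78, 4.01 and 5.58 CPM in B6 and 0.0642, 0.217 and 0.349 in Tac111 (edgeR log2 fold change -4.46 with SE 0.35 and adjusted p = 1.82e-04). Cxcr6, a chemokine receptor of resident lymphocytes, was at 1.98, 1.01 and 1.49 CPM in B6 and 0.0642, 0.145 and 0.0582 in Tac111 (edgeR log2 fold change -4.07 with SE 0.45 and adjusted p = 0.00129). Cd69, which retains lymphocytes in tissue, had a log2 fold change of -2.64 (edgeR adjusted p = 0.00595). In the small list for gamma delta and epidermal T cells, Trdc, Cd163l1 and Itgae fell among 5 tested members, and Trdc, the delta chain constant segment, was at 1.51, 0.906 and 1.06 CPM in B6 and 0.0321, 0.109 and 0.0291 in Tac111 (edgeR log2 fold change -4.35 with SE 0.49 and adjusted p = 0.00138). Tcrg-C1, a gamma chain constant segment in no list, was at least 27.1-fold lower. Costimulatory and checkpoint genes fell in 9 of 26 tested members, among them Tnfrsf9, the receptor 4-1BB (edgeR log2 fold change -3.87 with SE 0.52 and adjusted p = 0.00306), and Havcr2, the checkpoint receptor TIM-3 (edgeR log2 fold change -2.53 with SE 0.31 and adjusted p = 0.00191). In the ILC2 list only Hpgds, a prostaglandin D2 synthase, passed the test of 9 tested members (edgeR log2 fold change -1.17 with SE 0.17 and adjusted p = 0.00431), and the summed share of the list was 0.044 to 0.0696% of counts in B6 and 0.0566 to 0.0622% in Tac111. B and plasma cell markers had no called member among 6 tested.

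Genes outside the lists, chosen after their values were seen, extended these falls to signalling proteins of lymphocytes. Ptprcap, which associates with CD45, was at 1.53, 1.05 and 1.23 CPM in B6 and 0.0321, 0.0724 and 0.146 in Tac111 (edgeR log2 fold change -3.84 with SE 0.44 and adjusted p = 0.00138). Zap70, the kinase recruited by the T cell receptor, had a log2 fold change of -3.18 (edgeR adjusted p = 0.00804). Both chains of the IL-18 receptor fell, Il18r1 by 1.75 and Il18rap by 2.41 on the log2 scale (edgeR adjusted p = 0.00346 and 0.00968). Ms4a4b had no count in Tac111 and was at least 21.9-fold lower, Trat1, an adaptor of the T cell receptor, at least 17.3-fold lower, and Ctsw, a cathepsin of cytotoxic cells, had 184 counts in B6 and 2 in Tac111, a ratio of 85.1-fold, with a 95% counting interval of 23.2 to 708. Gpr183, a receptor that guides immune cells along oxysterol gradients, was also lower (edgeR log2 fold change -1.72 with SE 0.29 and adjusted p = 0.00988).

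Pan-leukocyte markers fell in 21 of 28 tested members and all 28 had a negative log2 fold change, with a median of -0.90 and a lowest value of -1.75. Ptprc, which encodes CD45, was at 11, 10.8 and 11.9 CPM in B6 and 4.5, 5.06 and 4.54 in Tac111 (edgeR log2 fold change -1.26 with SE 0.12 and adjusted p = 5.77e-04). Lcp1, an actin-bundling protein of leukocytes, fell from 26.4, 29.7 and 31.6 CPM to 14.5, 10.8 and 11 (edgeR log2 fold change -1.27 with SE 0.13 and adjusted p = 9.70e-04). Ikzf1, the lymphoid transcription factor Ikaros, and Coro1a, an actin regulator, had log2 fold changes of -1.43 and -0.91 (edgeR adjusted p = 0.00402 and 0.00481). For each of these 4 genes the libraries of one strain stood apart from those of the other. Summed over the list, the share of counts was 0.0273 to 0.0287% in B6 and 0.0174 to 0.0181% in Tac111. The count of called members was 10 without Tac111 replicate 2 and 11 without B6 replicate 2. Outside the lists, Csf2rb, the receptor chain shared by GM-CSF, IL-3 and IL-5, was at 8.37, 11.4 and 10.3 CPM in B6 and 5.46, 4.45 and 4.66 in Tac111 (edgeR log2 fold change -1.04 with SE 0.15 and adjusted p = 0.00467), and its near copy Csf2rb2 had a log2 fold change of -1.24 (edgeR adjusted p = 0.00108). Selplg, the ligand of selectins on leukocytes, Hvcn1, a proton channel of phagocytes, and Spn, the sialoprotein CD43, fell by 1.15, 1.65 and 1.67 (edgeR adjusted p = 0.00629, 0.00129 and 0.00204).

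All 30 tested macrophage and monocyte markers had a negative log2 fold change, from -1.33 to -0.02 with a median of -0.50, and 6 passed the test. Csf1r, the receptor for macrophage colony-stimulating factor, was at 37.8, 47.4 and 38.6 CPM in B6 and 26.5, 22.3 and 23.3 in Tac111 (edgeR log2 fold change -0.78 with SE 0.11 and adjusted p = 0.00472). Adgre1, the macrophage marker F4/80, fell from 10.2, 9.83 and 8.63 CPM to 6.55, 5.28 and 4.48 (edgeR log2 fold change -0.81 with SE 0.16 and adjusted p = 0.0162). The scavenger receptors Cd163 and Mrc1 did not pass, with log2 fold changes of -0.55 and -0.43 (edgeR adjusted p = 0.0643 and 0.0935). The number of macrophage markers called was 1 without Tac111 replicate 2, 2 without B6 replicate 2 and 1 with the Tac146 libraries added. Csf1r was not called with the Tac146 libraries added (0.0554), nor Adgre1 without Tac111 replicate 2 or B6 replicate 2 (0.0669 to 0.0707) or with the Tac146 libraries added (0.0836).

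Langerhans cell markers were lower in 6 of 13 tested members, led by Cd207, the lectin langerin that defines these cells, at 7.32, 4.57 and 6.54 CPM in B6 and 1.19, 1.48 and 2.1 in Tac111 (edgeR log2 fold change -1.95 with SE 0.25 and adjusted p = 0.00223). Itgax, the integrin CD11c, was at 4.02, 4.81 and 6.74 CPM in B6 and 1.61, 1.34 and 1.46 in Tac111 (edgeR log2 fold change -1.81 with SE 0.22 and adjusted p = 0.00203). Dendritic cell markers were lower in 6 of 16. Ccl22, a chemokine of mature dendritic cells, was at 5.4, 5.09 and 7.04 CPM in B6 and 1.32, 1.16 and 1.28 in Tac111 (edgeR log2 fold change -2.22 with SE 0.19 and adjusted p = 3.00e-04). Ccr7, the receptor that leads dendritic cells to lymph nodes, had 58 counts in B6 and 1 in Tac111, a ratio of 53.7-fold, with a 95% counting interval of 9.26 to 2160.0. For all of these the lowest B6 library stood above the highest Tac111 library. Ear2, an eosinophil ribonuclease, was also lower (edgeR log2 fold change -1.48 with SE 0.22 and adjusted p = 0.00481). The count for dendritic cells was 3 without Tac111 replicate 2.

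Mast cell markers gave no call: none of 14 tested members passed the test, 11 had a positive log2 fold change, and the range was -0.18 to 0.49. Cpa3, a mast cell carboxypeptidase, was at 28.5, 35.2 and 26.1 CPM in B6 and 36.3, 31.1 and 36 in Tac111, with overlapping libraries (edgeR log2 fold change 0.21 with SE 0.12 and adjusted p = 0.322). Cma1, a mast cell chymase, was at 36.6, 40.7 and 30.6 CPM in B6 and 42.1, 32.9 and 37.4 in Tac111 (edgeR log2 fold change 0.06 with SE 0.13 and adjusted p = 0.803). A p-value above the threshold does not show that these levels were equal. Whether mast cells and other leukocytes differed from each other in their change was not tested.

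**Figure D3:**
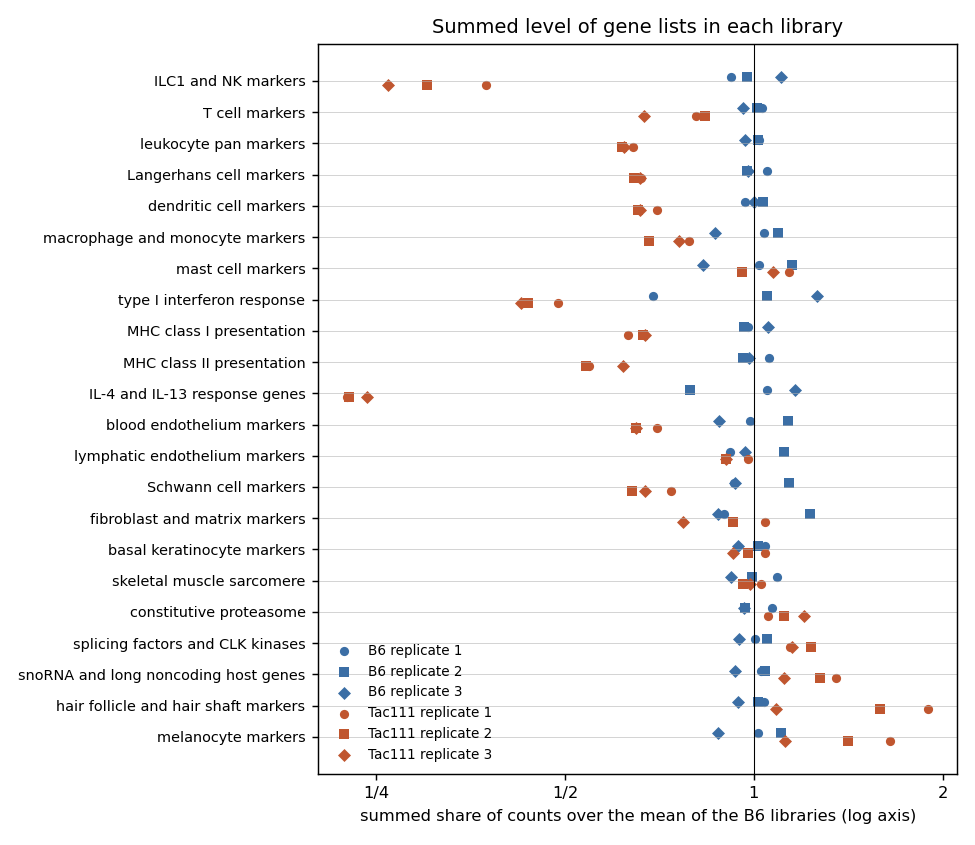
Summed share of counts of 22 gene lists in each library, divided by the mean of the B6 libraries, on a log axis, with 1 point per library. The leukocyte, interferon, MHC and endothelial lists lie below 1 in all 3 Tac111 libraries, and the mast cell, skeletal muscle and fibroblast lists lie around 1.

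Both interferon lists held more called genes than any other of the 95 lists. Of 54 tested type I interferon response genes, 37 fell and none rose, with a median log2 fold change of -1.15, and of 34 tested interferon gamma response genes, 26 fell and none rose, with a median of -1.36. Short windows around the starts of Ifit1, Gbp2 and Cxcl10 from these lists, and of B2m, which is in neither, were taken from RefSeq on GRCm38.p6. They show the letters of the interferon-stimulated response element core, GAAANNGAAA, searched on both strands. Each window runs 5′ to 3′ on the gene's own strand from 250 bases before the start to 50 after it, and capitals mark the motif. They were chosen to show an antiviral gene, a GTPase, a chemokine and the light chain of MHC class I.
Ifit1 chr19:34640639-34640938, plus strand: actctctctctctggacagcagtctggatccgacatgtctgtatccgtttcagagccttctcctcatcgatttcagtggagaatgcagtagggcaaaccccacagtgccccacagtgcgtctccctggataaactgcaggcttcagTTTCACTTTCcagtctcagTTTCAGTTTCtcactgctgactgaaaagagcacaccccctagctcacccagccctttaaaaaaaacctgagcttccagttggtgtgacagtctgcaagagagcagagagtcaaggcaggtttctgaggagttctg
Gbp2 chr3:142620413-142620712, plus strand: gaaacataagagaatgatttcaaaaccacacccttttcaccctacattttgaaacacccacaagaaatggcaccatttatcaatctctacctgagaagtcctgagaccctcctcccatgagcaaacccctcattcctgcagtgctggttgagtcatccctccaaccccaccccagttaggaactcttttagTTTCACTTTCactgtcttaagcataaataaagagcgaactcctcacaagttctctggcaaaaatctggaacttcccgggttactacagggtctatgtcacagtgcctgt
Cxcl10 chr5:92348840-92349139, minus strand: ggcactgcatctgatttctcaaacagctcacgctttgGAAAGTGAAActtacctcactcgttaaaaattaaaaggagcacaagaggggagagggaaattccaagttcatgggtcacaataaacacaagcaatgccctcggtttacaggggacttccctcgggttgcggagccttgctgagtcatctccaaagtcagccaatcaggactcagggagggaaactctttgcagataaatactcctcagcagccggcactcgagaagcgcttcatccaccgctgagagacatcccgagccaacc
B2m chr2:122147437-122147736, plus strand: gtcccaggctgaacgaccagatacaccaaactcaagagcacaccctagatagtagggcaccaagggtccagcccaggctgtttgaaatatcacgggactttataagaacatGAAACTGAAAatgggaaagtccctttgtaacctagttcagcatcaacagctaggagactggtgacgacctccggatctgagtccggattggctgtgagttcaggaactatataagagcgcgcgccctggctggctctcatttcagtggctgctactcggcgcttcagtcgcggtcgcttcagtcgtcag
Ifit1 held 2 matches, and the other windows 1 each. Of all 15169 windows, which belonged to 11933 tested genes, 3.1% held the motif. Among windows of genes called lower in the interferon lists it was 54.5% (30 of 55 windows). Among windows of the other genes called lower, B2m included, it was 5.74%, and among those of genes called higher 1.58%. The lists were drawn up as interferon-induced genes, so a high share in them is a description of their members. The gamma-activated site, TTCNNNGAA, was in 6.94% of all windows, in 23.6% of those of the interferon genes called lower, in 36.4% (4 of 11) of those of the IL-4 and IL-13 genes called lower, in 11% of those of genes called lower outside the interferon lists and in 7.51% of those of genes called higher. A window that lacks the letters shows only that they are not in those 300 bases.

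The 4 genes shown fell in different degrees. Cxcl10, which attracts T cells and NK cells, was at 1.82, 3.76 and 4.71 CPM in B6 and 0.0642, 0.217 and 0.262 in Tac111 (edgeR log2 fold change -4.19 with SE 0.49 and adjusted p = 0.00153). Gbp2, a guanylate-binding protein that acts on vacuoles of pathogens, was at 15.5, 23.8 and 30.7 CPM in B6 and 6.84, 6.58 and 7.13 in Tac111 (edgeR log2 fold change -1.76 with SE 0.22 and adjusted p = 0.00192). Ifit1, which binds viral RNA, was at 4.59, 16.5 and 27.7 CPM in B6 and 2.92, 1.66 and 2.15 in Tac111 (edgeR log2 fold change -2.84 with SE 0.55 and adjusted p = 0.0169). B2m was at 308, 323 and 369 CPM in B6 and 105, 118 and 125.2 in Tac111 (edgeR log2 fold change -1.53 with SE 0.11 and adjusted p = 8.43e-05). The B6 libraries of Ifit1 differed more among themselves than those of B2m. Ifit1 was not called without Tac111 replicate 2 or B6 replicate 2 (0.0527 to 0.0768).

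Antiviral effectors fell widely in the type I list. Oas3, which makes the second messenger that activates RNase L, was at 1.96, 7.35 and 11.7 CPM in B6 and 0.482, 0.217 and 0.204 in Tac111 (edgeR log2 fold change -4.51 with SE 0.68 and adjusted p = 0.00549). Isg15 (chromosome 4, 156199424 to 156200818), a ubiquitin-like modifier, was at 13, 31.7 and 61.7 CPM in B6 and 4.59, 4.16 and 3.84 in Tac111 (edgeR log2 fold change -3.07 with SE 0.47 and adjusted p = 0.00572). In both genes B6 replicate 1 was the lowest B6 library and still above every Tac111 library. Usp18, the protease that removes ISG15, and Rsad2, the antiviral enzyme viperin, had log2 fold changes of -2.10 and -2.81 (edgeR adjusted p = 0.00804 and 0.00123). The regulators of the response fell too: Irf7, the factor that amplifies type I interferon, was at 13.2, 22 and 31.8 CPM in B6 and 7.48, 5.06 and 5.94 in Tac111 (edgeR log2 fold change -1.85 with SE 0.28 and adjusted p = 0.00577), and Irf9, a DNA-binding factor of the same response, had a log2 fold change of -1.08 (edgeR adjusted p = 0.00864). Stat3 and Jak1 did not pass, at log2 fold changes of -0.22 and -0.34 (edgeR adjusted p = 0.179 and 0.0613).

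Order among the B6 libraries was shared by these genes. For the 62 genes of both interferon lists that were called lower, the median log2 level relative to the B6 mean was -0.58, 0.04 and 0.38 in B6 replicates 1, 2 and 3 and -1.51, -1.59 and -1.53 in the Tac111 replicates, on the log2(CPM + 0.1) scale. B6 replicate 1 was the lowest B6 library for 60 of the 62 genes and B6 replicate 3 the highest for 54. The 62 genes thus varied together between the B6 libraries, whereas the Tac111 medians lay close to each other. They were kept because they were called lower, which favours close levels within a strain. Over the whole type I list, the share of counts was 0.054, 0.0821 and 0.0986% in the B6 replicates and 0.0381, 0.0341 and 0.0333% in the Tac111 replicates. What set B6 replicate 1 apart was not tested. The number of type I genes called was 16 without Tac111 replicate 2, 19 without B6 replicate 2 and 24 without B6 replicate 3, and that of interferon gamma genes 17 without Tac111 replicate 2.

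Nucleic acid sensors fell in 10 of 32 tested members, with a median of -0.38. Ddx60, a helicase that promotes sensing of viral RNA, was at 2.51, 5.16 and 7.87 CPM in B6 and 1.32, 1.12 and 1.02 in Tac111 (edgeR log2 fold change -2.15 with SE 0.38 and adjusted p = 0.0112). Samhd1, which depletes nucleotides needed for viral DNA synthesis, had a log2 fold change of -0.82 (edgeR adjusted p = 0.00988). The count for this list depended on single libraries, at 1 without Tac111 replicate 2, 5 without Tac111 replicate 3, 3 without B6 replicate 2 and 3 without B6 replicate 3. Ddx60 was not called without Tac111 replicate 2 (0.0518), nor Samhd1 without Tac111 replicate 2 (0.0531).

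GTPases and chemokines of the interferon gamma response stood out. Cxcl9, like Cxcl10 a ligand of the receptor CXCR3, was at 2.58, 4.6 and 7.11 CPM in B6 and 0.257, 0 and 0.146 in Tac111 (edgeR log2 fold change -5.05 with SE 0.58 and adjusted p = 0.00151). Igtp and Iigp1, immunity-related GTPases, had log2 fold changes of -1.91 and -2.36 (edgeR adjusted p = 0.00823 and 0.00271). Of the guanylate-binding proteins, 7 of 8 tested fell, with log2 fold changes from -1.76 for Gbp2 to -1.08 for Gbp9, and Gbp6 among them at -1.22. Genes of this family and of the Tgtp and Apol9 pairs are near copies, so their reads may have been split between members. Ciita, which switches on MHC class II genes, was at 3.56, 3.66 and 4.78 CPM in B6 and 1.73, 1.19 and 1.37 in Tac111 (edgeR log2 fold change -1.47 with SE 0.21 and adjusted p = 0.00402). Nlrc5, its counterpart for MHC class I, was at 14.2, 19.9 and 22.5 CPM in B6 and 4.37, 4.99 and 4.02 in Tac111 (edgeR log2 fold change -2.08 with SE 0.18 and adjusted p = 3.17e-04). Outside the lists, Gvin1, a giant interferon-inducible GTPase, and Ifi47, another GTPase, fell by 2.39 and 2.66 (edgeR adjusted p = 9.02e-04 and 0.00223), and Ifitm3, which blocks viral entry, had a log2 fold change of -0.57 (edgeR adjusted p = 0.00771). Gbp9 was not called without Tac111 replicate 2 or B6 replicates 2 or 3 (0.0905 to 0.111), nor Gbp6 without Tac111 replicates 1 or 2 or B6 replicates 2 or 3 (0.0572 to 0.0886).

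Antigen presentation genes were lower as well. The part of Ciita and Nlrc5 in these falls was not tested. In MHC class I presentation, 10 of 21 tested members fell, and in MHC class II presentation 9 of 13, with medians of -0.90 and -1.03. H2-K1, a classical class I heavy chain, was at 341, 320.1 and 389 CPM in B6 and 138, 149.8 and 174 in Tac111 (edgeR log2 fold change -1.19 with SE 0.12 and adjusted p = 8.68e-04). Tap1, a subunit of the peptide transporter, had a log2 fold change of -0.90 (edgeR adjusted p = 0.00804), while its partner Tap2 narrowly missed the threshold at -0.50 (edgeR adjusted p = 0.0519). In class II, H2-Ab1, a beta chain, was at 112, 94.3 and 108 CPM in B6 and 43.2, 43.7 and 60.6 in Tac111 (edgeR log2 fold change -1.09 with SE 0.14 and adjusted p = 0.00223), and Cd74, the invariant chain, at 282, 251 and 289 and 128, 130.3 and 155 (edgeR log2 fold change -0.99 with SE 0.11 and adjusted p = 0.00115). Every library of one strain lay on one side of those of the other for each of these 4 called genes.

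Of 8 tested genes of the immunoproteasome and its regulators, 2 fell and none rose, with a median of -0.02. Psmb8 and Psmb9, catalytic subunits of the immunoproteasome that interferon induces, fell. Psmb8 was at 15.7, 15.8 and 18.4 CPM in B6 and 6.2, 6.37 and 6.87 in Tac111 (edgeR log2 fold change -1.36 with SE 0.11 and adjusted p = 2.80e-04), and Psmb9 at 10.3, 12.4 and 16.6 and 5.01, 4.16 and 5.71 (edgeR log2 fold change -1.39 with SE 0.19 and adjusted p = 0.00335). The third immunoproteasome subunit, Psmb10, did not pass (edgeR log2 fold change -0.30 with SE 0.15 and adjusted p = 0.242), nor did the activator subunits Psme1 and Psme2, with log2 fold changes of 0.00 and 0.02 (edgeR adjusted p = 0.985 and 0.928). None of the 32 constitutive proteasome subunits tested passed the test, and their log2 fold changes ran from -0.14 to 0.35 with a median of 0.19. The difference between these subunits in their change was not tested.

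Genes induced by IL-4 and IL-13 held the largest fall of the comparison, that of Chil4, and 14 of 30 tested members fell, and none rose. Their median log2 fold change was -0.33, since 16 members did not pass. The windows around the start sites of 4 of the genes that fell are given as above, with capitals at the STAT6-type spaced palindrome, TTCNNNNGAA, whose letters read the same on both strands. They were chosen to show a chitinase-like protein, a small secreted protein of alternative activation, a chemokine and an epithelial barrier protein.
Chil4 chr3:106219430-106219729, minus strand: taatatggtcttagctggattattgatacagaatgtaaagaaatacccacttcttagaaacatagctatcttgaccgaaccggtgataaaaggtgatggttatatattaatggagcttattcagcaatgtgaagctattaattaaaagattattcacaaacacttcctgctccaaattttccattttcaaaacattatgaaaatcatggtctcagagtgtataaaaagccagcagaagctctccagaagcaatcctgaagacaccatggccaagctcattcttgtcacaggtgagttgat
Retnla chr16:48842359-48842658, plus strand: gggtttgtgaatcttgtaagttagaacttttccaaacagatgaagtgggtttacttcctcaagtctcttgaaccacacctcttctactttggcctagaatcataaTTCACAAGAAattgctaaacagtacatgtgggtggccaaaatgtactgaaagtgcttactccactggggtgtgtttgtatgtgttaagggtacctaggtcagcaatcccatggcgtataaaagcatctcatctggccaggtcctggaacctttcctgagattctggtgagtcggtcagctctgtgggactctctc
Ccl17 chr8:94810203-94810502, plus strand: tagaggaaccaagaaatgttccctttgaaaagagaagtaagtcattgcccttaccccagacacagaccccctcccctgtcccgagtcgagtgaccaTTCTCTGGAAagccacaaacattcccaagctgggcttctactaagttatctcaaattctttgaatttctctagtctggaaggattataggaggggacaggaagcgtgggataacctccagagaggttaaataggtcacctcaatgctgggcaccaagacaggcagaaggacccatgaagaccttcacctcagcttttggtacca
Sprr2a2 chr3:92250397-92250696, plus strand: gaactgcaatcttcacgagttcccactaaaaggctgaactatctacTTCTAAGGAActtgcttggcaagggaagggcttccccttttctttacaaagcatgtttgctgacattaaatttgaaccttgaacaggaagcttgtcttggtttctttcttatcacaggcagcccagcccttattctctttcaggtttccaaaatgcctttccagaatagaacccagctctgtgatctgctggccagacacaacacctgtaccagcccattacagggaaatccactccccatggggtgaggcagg
The windows of Retnla, Ccl17 and Sprr2a2 held 1 match each and that of Chil4 none. In windows of the genes of this list called lower, 5 of 11 held the palindrome (45.5%), against 5.52% of all windows, 12.7% of those of the interferon genes called lower and 4.74% of those of genes called higher. None of the 11 held the interferon-stimulated response element core. This list was drawn up as genes that IL-4 and IL-13 induce, so a high share of the palindrome in it is a description of its members. In the 150 bases before the start, 1 of the 11 windows held the palindrome (9.09%), against 2.29% of all windows.

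Chil4 (chromosome 3, 106201490 to 106219507), a chitinase-like protein secreted in type 2 inflammation, was at 1902, 1208 and 2305 CPM in B6 and 1.12, 0.76 and 0.146 in Tac111 (edgeR log2 fold change -11.41 with SE 0.48 and adjusted p = 2.59e-06). Sprr2a2, a small proline-rich protein of the cornified envelope, was at 2101, 1276 and 2011 CPM in B6 and 5.36, 6.4 and 5.09 in Tac111 (edgeR log2 fold change -8.32 with SE 0.25 and adjusted p = 1.56e-07). Alox15, a lipoxygenase of eosinophils, macrophages and epithelium, was at 121, 191 and 312 CPM in B6 and 3.18, 4.49 and 4.43 in Tac111 (edgeR log2 fold change -5.69 with SE 0.35 and adjusted p = 3.54e-05). These 3 genes were far lower in every Tac111 library than in any B6 library. Chil3 and Chil4 are near copies, as are Sprr2a1, Sprr2a2 and Sprr2a3, so the split of reads within each set is uncertain. Ccl17, which draws cells that carry CCR4, was at 0.909, 1.57 and 2.26 CPM in B6 and 0.128, 0.253 and 0.0873 in Tac111 (edgeR log2 fold change -3.33 with SE 0.49 and adjusted p = 0.00472). Gsdmc2 and Gsdmc, pore-forming gasdermins of epithelium, fell by 3.03 and 0.99 on the log2 scale (edgeR adjusted p = 4.59e-05 and 0.00834). Retnla was at 65.4, 44.7 and 46.5 CPM in B6 and 25.1, 28.7 and 35 in Tac111 (edgeR log2 fold change -0.82 with SE 0.16 and adjusted p = 0.0189). Retnla was not called without Tac111 replicates 1 or 2 (0.0518 to 0.0835).

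Of 39 tested members of the cornified envelope list, 5 Sprr2 genes fell and none rose, and the median was -0.04. The number that fell was 3 without Tac111 replicate 2, 3 without Tac111 replicate 3 and 8 without B6 replicate 2, and 2 rose without Tac111 replicate 3. The cytokines themselves were close to absent: over the 3 libraries of each strain, Il4 had 9 counts in B6 and 4 in Tac111, Il13 had 7 and 0, and Il5 had 26 and 39. At these counts a difference in the cytokine transcripts was not detectable. Clca3a2, an epithelial protein linked to chloride currents, fell from 14.6, 11.6 and 9.36 CPM in B6 to 3.98, 4.78 and 5.39 in Tac111 (edgeR log2 fold change -1.33 with SE 0.18 and adjusted p = 0.00335). Mrgprg, a Mas-related receptor in no list, had 139 counts in B6 and 3 in Tac111, a ratio of 42.9-fold, with a 95% counting interval of 14.4 to 210.0. Bpifa5, a member of a family of secreted mucosal proteins and also in no list, had a log2 fold change of -3.61 (edgeR adjusted p = 0.00282). Bpifa5 was not called with the Tac146 libraries added (0.0678).

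In the list for arachidonate and lipid mediators, 6 of 26 tested members fell and none rose. Besides Alox15 and Hpgds, Alox12e, an epidermal lipoxygenase, was at 59.6, 44.8 and 42.4 CPM in B6 and 20.4, 22.1 and 24.6 in Tac111 (edgeR log2 fold change -1.13 with SE 0.14 and adjusted p = 0.00181). Alox5, the enzyme that starts leukotriene synthesis, had a log2 fold change of -0.93 (edgeR adjusted p = 0.0126). The cyclooxygenases Ptgs1 and Ptgs2 overlapped between the strains and did not pass, at log2 fold changes of -0.08 and -0.36 (edgeR adjusted p = 0.707 and 0.507). The number of members called was 3 without Tac111 replicate 2. Alox5 was not called without Tac111 replicate 2 (0.0638).

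Immediate early genes, which rise within minutes of growth factor or stress signals, fell in 8 of 27 tested members. Fos was at 30.8, 29.6 and 42.7 CPM in B6 and 15.9, 11.2 and 7.69 in Tac111 (edgeR log2 fold change -1.57 with SE 0.23 and adjusted p = 0.00512). Dusp1, a phosphatase that switches off MAP kinases, was at 91.8, 106 and 102 CPM in B6 and 52.8, 51.5 and 43.6 in Tac111 (edgeR log2 fold change -1.02 with SE 0.10 and adjusted p = 8.68e-04). Fosb and Klf6 had log2 fold changes of -1.09 and -0.57 (edgeR adjusted p = 0.0105 and 0.00555). These transcripts also respond to the handling of tissue, and no handling times are given in the sources used here. The count was 5 without Tac111 replicate 2, 4 without B6 replicate 2, 5 without B6 replicate 3 and 4 with the Tac146 libraries added. Among 32 tested genes of the NF-kB and TNF pathway, 7 fell and 1 rose, and the number that fell was 4 without Tac111 replicate 2, 4 without Tac111 replicate 3, 4 without B6 replicate 2 and 4 without B6 replicate 3. Nfkbia, the inhibitor that NF-kB induces, had a log2 fold change of -0.65 (edgeR adjusted p = 0.00472), and Tnip1, which restrains the pathway, rose (edgeR log2 fold change 0.53 with SE 0.09 and adjusted p = 0.00879). Fosb was not called with the Tac146 libraries added (0.0911).

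Outside the immune system, markers of blood vessels formed a group with many falls. Of 30 tested markers of blood endothelium, 14 fell and none rose, and 29 had a negative log2 fold change, with a median of -0.52. Cdh5, the cadherin of endothelial junctions, was at 30.4, 38.6 and 33.5 CPM in B6 and 15.8, 16 and 12.7 in Tac111 (edgeR log2 fold change -1.21 with SE 0.13 and adjusted p = 9.90e-04). Flt1, a receptor for VEGF, was at 25.6, 30 and 27.8 CPM in B6 and 12.1, 13.3 and 12.3 in Tac111 (edgeR log2 fold change -1.14 with SE 0.10 and adjusted p = 3.17e-04). Pecam1, the adhesion molecule CD31, was at 47.9, 58 and 47.5 CPM in B6 and 32.4, 28.8 and 31.1 in Tac111 (edgeR log2 fold change -0.73 with SE 0.10 and adjusted p = 0.00379). All 3 were lower in every Tac111 library than in any B6 library. Over the 14 called genes, the median log2 level relative to the B6 mean was -0.09, 0.18 and -0.11 in the B6 replicates and -0.85, -0.88 and -0.90 in the Tac111 replicates, and B6 replicate 2 was the highest B6 library for 12 of them. They too were kept because they were called lower. Over the whole endothelial list, the share of counts was 0.0776, 0.0893 and 0.0692% in the B6 replicates and 0.0552, 0.0511 and 0.0511% in the Tac111 replicates. The count of called markers was 8 without Tac111 replicate 2 and 8 without B6 replicate 2.

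Further genes with a role in vessels fell that the endothelial lists did not hold, picked after their values were seen. Which cells held their transcripts was not tested. Adgrf5, an adhesion G protein-coupled receptor found in endothelium, was at 42, 52.8 and 39.4 CPM in B6 and 22.6, 21.5 and 17.6 in Tac111 (edgeR log2 fold change -1.12 with SE 0.13 and adjusted p = 0.00173). Thbd, the anticoagulant receptor thrombomodulin, was at 66.1, 62.2 and 53.4 CPM in B6 and 36.2, 39.2 and 32.8 in Tac111 (edgeR log2 fold change -0.75 with SE 0.11 and adjusted p = 0.00406). Kcna5, a voltage-gated potassium channel, Abcb1a, the efflux pump of endothelial barriers, and Cd300lg, a mucin-like receptor of capillaries, fell by 1.67, 1.09 and 0.79 (edgeR adjusted p = 0.00416, 0.00706 and 0.00271). Dll4, the Notch ligand of endothelial tip cells and a member of the Notch and VEGF lists, had a log2 fold change of -0.99 (edgeR adjusted p = 0.00861). By contrast, none of 11 tested markers of lymphatic endothelium passed the test in these 6 libraries, with a median of -0.27, though 3 were lower without B6 replicate 1. Of 17 pericyte and smooth muscle markers 3 fell, Abcc9, Myh11 and Rgs5, a regulator of G protein signalling in pericytes (edgeR log2 fold change -0.66 with SE 0.10 and adjusted p = 0.00422), and the number was 1 without Tac111 replicate 2 and 1 without B6 replicate 2. Of 25 fibroblast and matrix markers Sparc and Ly6c1 fell and Pi16 rose, with a median of -0.01. As shares, 8% fell and 4% rose, against 3.54% and 1.93% of all tested genes. Abcc9 was not called without Tac111 replicates 2 or 3 or B6 replicates 2 or 3 (0.0542 to 0.169) or with the Tac146 libraries added (0.129), nor Myh11 without Tac111 replicate 2 or B6 replicate 2 (0.0537 to 0.0607), nor Sparc without Tac111 replicate 2 or B6 replicate 2 (0.0584 to 0.0639). Ly6c1 was not called without Tac111 replicates 1 or 2 or B6 replicate 2 (0.0748 to 0.122) or with the Tac146 libraries added (0.0698), nor Pi16 without Tac111 replicates 1, 2 or 3 or B6 replicates 2 or 3 (0.0503 to 0.16) or with the Tac146 libraries added (0.19).

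Of 18 tested markers of Schwann cells, which wrap axons in myelin, 6 fell and none rose, and the median was -0.37. Mbp, a structural protein of myelin, was at 179, 195 and 189.7 CPM in B6 and 127, 102 and 126 in Tac111 (edgeR log2 fold change -0.67 with SE 0.11 and adjusted p = 0.00706), and Drp2, which anchors the Schwann cell to its basement membrane, at 31.2, 34.3 and 33.1 and 21.8, 20.8 and 17.9 (edgeR log2 fold change -0.71 with SE 0.10 and adjusted p = 0.00391). The libraries of the strains stood apart for these genes. The count was 3 without Tac111 replicate 2 and 3 without B6 replicate 2. Of the neuron and axon markers only 4 could be tested, and none passed.

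**Figure D4:**
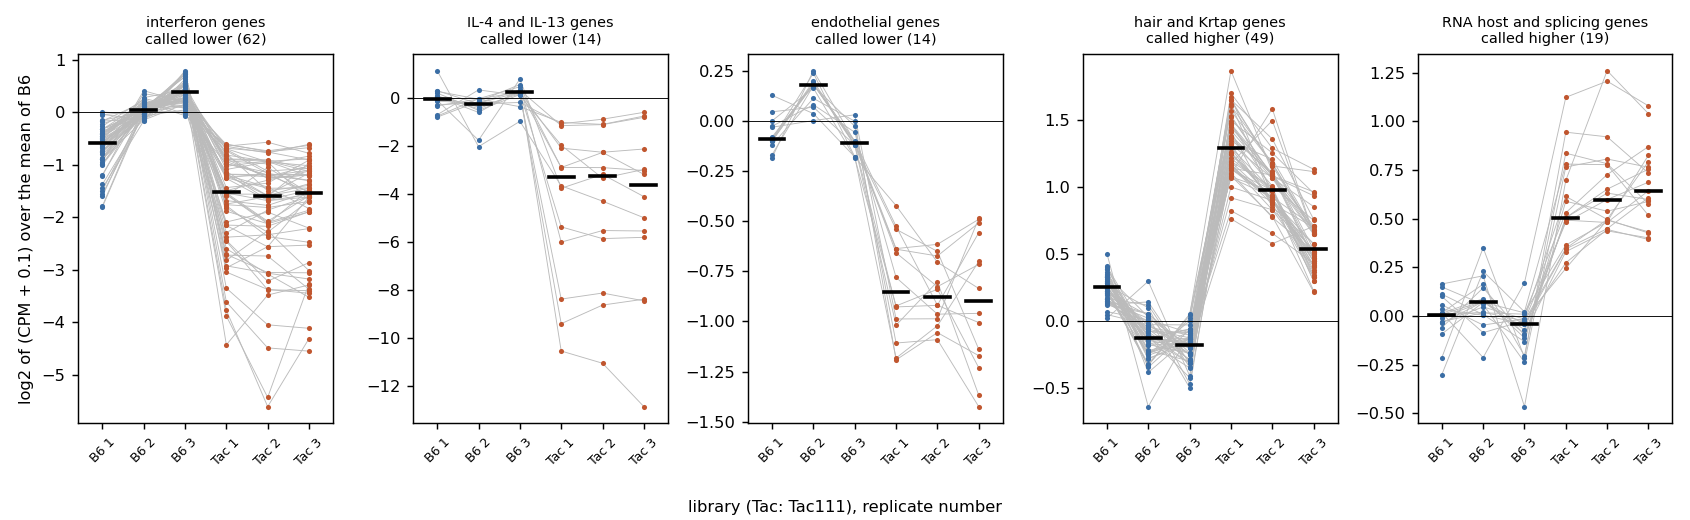
Log2 level of each called gene over the mean of the B6 libraries, on the log2(CPM + 0.1) scale, in each of the 6 libraries, for 5 groups of called genes. Points are genes and black bars are medians. Interferon genes are lowest in B6 replicate 1 among the B6 libraries, and hair and keratin-associated genes differ between the Tac111 libraries, with medians of 1.29, 0.97 and 0.54.

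Among the genes that rose, those of the hair shaft were the most numerous. Of 35 tested markers of the hair follicle and hair shaft, 15 rose and none fell, with a median of 0.77. Krt28, a keratin of the inner root sheath, was at 43.9, 36.9 and 31.7 CPM in B6 and 102, 79.7 and 59.1 in Tac111 (edgeR log2 fold change 1.10 with SE 0.19 and adjusted p = 0.00969). Krt32, a cuticle keratin, and Msx2, a transcription factor of the hair matrix, had log2 fold changes of 0.68 and 0.94 (edgeR adjusted p = 0.00804 and 0.0028). S100a3, a calcium-binding protein of the hair cuticle, was at 111.5, 77.7 and 62.8 CPM in B6 and 241, 178 and 164 in Tac111 (edgeR log2 fold change 1.21 with SE 0.21 and adjusted p = 0.0099). The keratin-associated proteins, which cross-link keratins in the shaft and were in no list, rose in 34 of 57 tested members, with log2 fold changes from 0.64 to 1.40 among those called. Krtap8-1 was at 136, 95.3 and 107 CPM in B6 and 291, 242 and 160.0 in Tac111 (edgeR log2 fold change 1.03 with SE 0.20 and adjusted p = 0.0184). Members of that family are near copies of each other. Krt28 was not called with the Tac146 libraries added (0.173), nor Msx2 with the Tac146 libraries added (0.0638), nor S100a3 without B6 replicate 2 (0.0537) or with the Tac146 libraries added (0.0937). Krtap8-1 was not called without Tac111 replicate 2 or B6 replicates 2 or 3 (0.069 to 0.0911) or with the Tac146 libraries added (0.288).

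How far these hair genes rose differed between libraries. Summed over the marker list, the share of counts was 0.366, 0.358 and 0.333% in the B6 replicates and 0.669, 0.56 and 0.382% in the Tac111 replicates. Across the 49 called hair and keratin-associated genes, Tac111 replicate 1 was the highest Tac111 library for 47 and Tac111 replicate 3 the lowest for 48. Called hair markers numbered 7 without Tac111 replicate 1, 4 without Tac111 replicate 2, 25 without Tac111 replicate 3, 3 without B6 replicate 2, 4 without B6 replicate 3 and 1 with the Tac146 libraries added. Called keratin-associated genes numbered 20 without Tac111 replicate 1, 12 without Tac111 replicate 2, 53 without Tac111 replicate 3, 6 without B6 replicate 2, 11 without B6 replicate 3 and 0 with the Tac146 libraries added. Whether the biopsies differed in the number or phase of hair follicles they held was not tested. Of pathways that act in the follicle, 3 of 13 Hedgehog genes rose (23.1%, against 1.93% of all tested genes), Gli1 and Hhip among them. Of 43 Wnt pathway genes only Lef1 rose (2.33%). The Hedgehog count was 0 without Tac111 replicate 1, 0 without Tac111 replicate 2, 0 without B6 replicate 1, 1 without B6 replicate 2, 0 without B6 replicate 3 and 0 with the Tac146 libraries added, and 4 Wnt genes rose without Tac111 replicate 3. Gli1 was not called without Tac111 replicates 1 or 2 or B6 replicates 1 or 3 (0.0507 to 0.104) or with the Tac146 libraries added (0.0739), nor Hhip without Tac111 replicates 1 or 2 or B6 replicates 1, 2 or 3 (0.0775 to 0.148) or with the Tac146 libraries added (0.068).

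Pigment cell markers rose in 3 of 8 tested members (Pmel, Dct and Mlana) and fell in none, and all 8 had a positive log2 fold change. The count was 1 without Tac111 replicate 2, 1 without B6 replicate 2 and 1 with the Tac146 libraries added. Pmel, the scaffold protein of melanosomes, was at 1.43, 0.906 and 0.896 CPM in B6 and 3.95, 3.51 and 2.62 in Tac111 (edgeR log2 fold change 1.61 with SE 0.25 and adjusted p = 0.00673). Dct, an enzyme of melanin synthesis, was at 3.35, 2.02 and 2.12 CPM in B6 and 7.16, 7.13 and 4.37 in Tac111 (edgeR log2 fold change 1.29 with SE 0.25 and adjusted p = 0.0171). Pmel and Dct were higher in each Tac111 library than in any B6 library. Summed over the list, the share of counts was 0.00271 to 0.00342% in B6 and 0.00346 to 0.00509% in Tac111. Pigment cells also lie in hair follicles, and the part of follicle content in this rise was not tested. Pmel was not called with the Tac146 libraries added (0.123), nor Dct without Tac111 replicate 2 or B6 replicates 2 or 3 (0.0666 to 0.0782) or with the Tac146 libraries added (0.181), nor Mlana without Tac111 replicates 1 or 2 or B6 replicates 1 or 2 (0.0589 to 0.0952).

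A second group that rose held noncoding host genes and genes of RNA splicing. Of 18 tested snoRNA and long noncoding host genes, 11 rose and none fell, with a median of 0.59, and of 37 splicing factors and CLK kinases, 8 rose and none fell, with a median of 0.27. Malat1, a nuclear noncoding RNA of splicing speckles, was at 75.4, 70.8 and 57.6 CPM in B6 and 116, 119 and 116 in Tac111 (edgeR log2 fold change 0.78 with SE 0.11 and adjusted p = 0.00335). Snhg1 and Snhg14, hosts of small nucleolar RNAs, had log2 fold changes of 0.59 and 1.19 (edgeR adjusted p = 0.00731 and 0.00777). Clk4, a kinase that phosphorylates splicing factors, was at 19, 20.1 and 17.4 CPM in B6 and 26.8, 29.7 and 31.9 in Tac111 (edgeR log2 fold change 0.64 with SE 0.10 and adjusted p = 0.00629), and Clk3 rose too (edgeR log2 fold change 0.57 with SE 0.09 and adjusted p = 0.00613). The medians over the 19 called genes were 0.01, 0.07 and -0.04 in the B6 replicates and 0.51, 0.60 and 0.64 in the Tac111 replicates. These genes were kept because they were called higher, which favours an even rise. Summed over the whole host gene list, the share of counts was 0.161, 0.163 and 0.146% in the B6 replicates and 0.212, 0.2 and 0.175% in the Tac111 replicates. For the splicing list it was 0.43, 0.449 and 0.406% and 0.489, 0.529 and 0.493%. Outside the lists, Ccnl2, a cyclin of splicing speckles, Snrnp70, a protein of the U1 particle, and Taf1d, another host of small nucleolar RNAs, rose by 0.69, 0.61 and 0.69 (edgeR adjusted p = 0.00163, 0.00359 and 0.00795). The count of called host genes was 4 without Tac111 replicate 2, 7 without B6 replicate 2 and 5 without B6 replicate 3, and that of splicing genes 3 without Tac111 replicate 2, 4 without B6 replicate 1, 3 without B6 replicate 2 and 3 without B6 replicate 3. Snhg14 was not called with the Tac146 libraries added (0.0571).

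Mitochondrial transcripts, which can move with RNA quality, took 5.38 to 6.02% of counts in B6 and 6.08 to 7.5% in Tac111, and none of the 15 tested passed the test. The part of RNA quality in the rise of nuclear noncoding RNAs was not tested. Nuclear genes of oxidative phosphorylation (79 tested) had no called member, and 76 had a positive log2 fold change, with a median of 0.26. Of 80 cytosolic ribosomal protein genes, 78 had a positive log2 fold change, with a median of 0.20, and Rpl22l1, a paralog of a ribosomal protein, passed the test (edgeR log2 fold change 0.48 with SE 0.11 and adjusted p = 0.0354). This call is 1.25% of the tested ribosomal protein genes, against 1.93% of all tested genes called higher. Rpl22l1 was not called without Tac111 replicates 2 or 3 or B6 replicates 2 or 3 (0.05 to 0.155).

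Of 13 tested salivary and minor gland genes 3 rose (23.1%, against 1.93% of all tested genes) and none fell, with a median of -0.04. Aqp5, the water channel of secretory gland cells, was at 3.32, 6.31 and 6.84 CPM in B6 and 16.4, 19.4 and 27.6 in Tac111 (edgeR log2 fold change 1.96 with SE 0.27 and adjusted p = 0.00312). Ccl28, a mucosal chemokine, rose (edgeR log2 fold change 1.82 with SE 0.33 and adjusted p = 0.012), as did Ltf, the iron-binding protein lactoferrin (edgeR log2 fold change 0.78 with SE 0.19 and adjusted p = 0.041). The count was 1 without B6 replicate 3. In the list for epithelial transport and fluid secretion, which also holds Aqp5, 4 of 26 tested members fell (15.4%, against 3.54%). These were Clca3a2, the water channels Aqp1 and Aqp7, with log2 fold changes of -0.90 and -0.87 (edgeR adjusted p = 9.02e-04 and 0.0445), and the sodium-proton exchanger Slc9a3 (edgeR log2 fold change -0.67 with SE 0.16 and adjusted p = 0.0367). The number that fell was 2 without Tac111 replicate 1, 2 without Tac111 replicate 2, 2 without Tac111 replicate 3, 2 without B6 replicate 2 and 2 without B6 replicate 3. Rab15, a small GTPase of recycling endosomes in no list, was at 32.6, 33.6 and 44 CPM in B6 and 82.1, 79.6 and 75.7 in Tac111 (edgeR log2 fold change 1.11 with SE 0.12 and adjusted p = 0.00108). Of 17 basal keratinocyte markers only Itga6, an integrin chain of hemidesmosomes, was called (edgeR log2 fold change -0.39 with SE 0.10 and adjusted p = 0.0491), and of 23 suprabasal oral markers only Krt6b, a keratin, at a log2 fold change of -0.51 (edgeR adjusted p = 0.0365). These calls are 5.88% and 4.35% of the tested members, against 3.54% of all tested genes called lower. The skeletal muscle list took 4.75 to 5.63% of counts in B6 and 4.98 to 5.31% in Tac111, and 2 of its 29 tested members (6.9%, against 3.54%) fell, Actn3, an actin cross-linker of fast fibres (edgeR log2 fold change -0.94 with SE 0.10 and adjusted p = 0.00107), and Mybpc2, a myosin-binding protein of fast fibres. Ccl28 was not called without Tac111 replicate 2 or B6 replicate 3 (0.0503 to 0.0538), nor Ltf without Tac111 replicates 1 or 3 or B6 replicates 1, 2 or 3 (0.0567 to 0.143) or with the Tac146 libraries added (0.0855), nor Aqp7 without Tac111 replicates 1, 2 or 3 or B6 replicates 2 or 3 (0.0721 to 0.176). Slc9a3 was not called without Tac111 replicates 1, 2 or 3 or B6 replicates 2 or 3 (0.0679 to 0.1) or with the Tac146 libraries added (0.068), nor Itga6 without Tac111 replicates 1, 2 or 3 or B6 replicates 1, 2 or 3 (0.053 to 0.176) or with the Tac146 libraries added (0.0606), nor Krt6b without Tac111 replicate 2 or B6 replicates 1, 2 or 3 (0.057 to 0.145) or with the Tac146 libraries added (0.176). Actn3 was not called with the Tac146 libraries added (0.0539), nor Mybpc2 without B6 replicate 3 (0.0731) or with the Tac146 libraries added (0.0649).

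**Figure D5:**
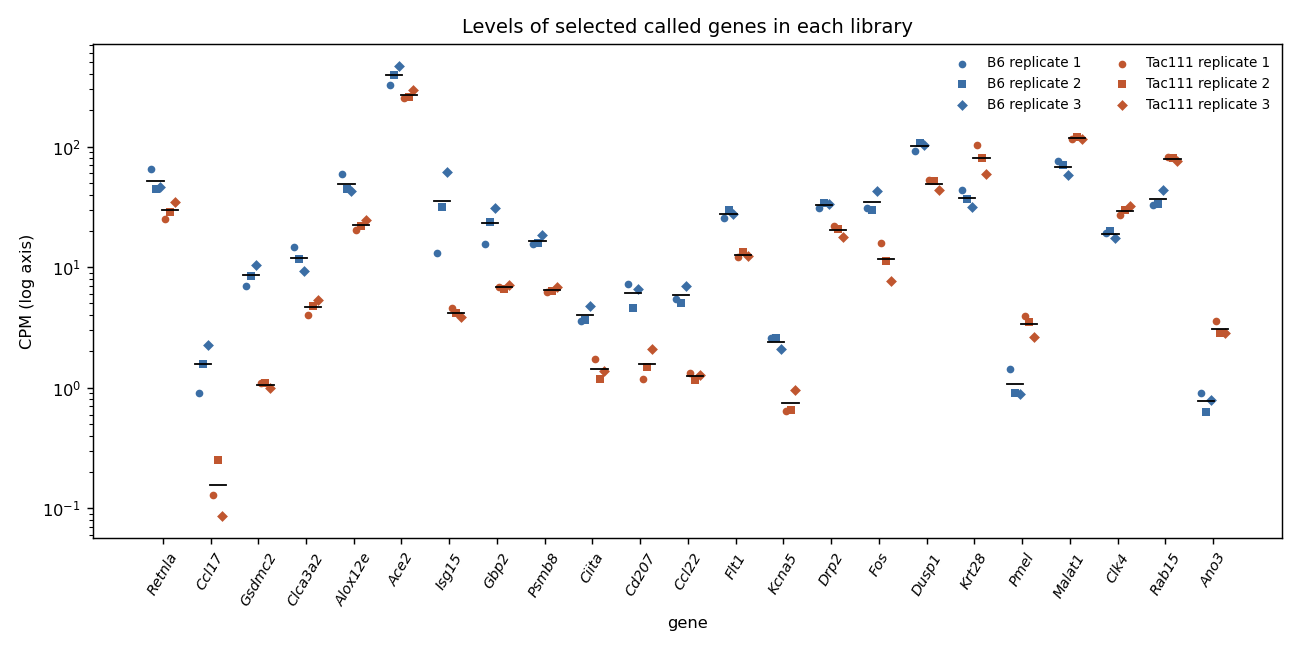
Level in CPM, on a log axis, of 23 genes in each of the 6 libraries, with bars at the mean of each strain. Points of the strains do not overlap in any of these genes, and the Tac111 points lie below the B6 points except for the genes that rose, such as Krt28, Pmel and Ano3.

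Several genes with large rises belonged to no list. Agmat, an enzyme of polyamine metabolism, had no count in B6 and 134 over the Tac111 libraries, at least 48.3-fold higher (edgeR adjusted p = 0.00204), and Opn1mw, a cone opsin, had none in B6 and 121 in Tac111, at least 43.6-fold higher (edgeR adjusted p = 0.00115). Ano3, a membrane protein of the anoctamin family, was at 0.909, 0.627 and 0.797 CPM in B6 and 3.56, 2.82 and 2.82 in Tac111 (edgeR log2 fold change 1.96 with SE 0.22 and adjusted p = 0.00138). Raver2, an RNA-binding protein, was at 1.6, 1.88 and 1.49 CPM in B6 and 5.3, 6.73 and 5.85 in Tac111 (edgeR log2 fold change 1.84 with SE 0.17 and adjusted p = 5.23e-04), and Tmem267 at 5, 5.19 and 5.01 and 18.7, 11.2 and 20.8 (edgeR log2 fold change 1.74 with SE 0.21 and adjusted p = 0.00163). The strains did not overlap for these genes. Of 32 tested collagens, whose median was 0.02, Col6a5 and Col16a1 fell and Col11a1 rose (edgeR log2 fold change 1.47 with SE 0.30 and adjusted p = 0.0213). That is 6.25% lower and 3.12% higher, against 3.54% and 1.93% of all tested genes. Col6a5 was at 1.65, 1.95 and 1.36 CPM in B6 and 0.193, 0.253 and 0.175 in Tac111 (edgeR log2 fold change -2.99 with SE 0.31 and adjusted p = 0.00104), and Col16a1 at 38.2, 36.1 and 38.6 and 11.7, 9.66 and 7.86 (edgeR log2 fold change -1.95 with SE 0.13 and adjusted p = 5.56e-05). Cd59a, an inhibitor of complement lysis, fell by 1.81 (edgeR adjusted p = 1.36e-05), and Pttg1, the anaphase inhibitor securin, by 2.39 (edgeR adjusted p = 5.52e-06), while the other 39 genes tested of mitosis did not pass. A difference in sequence between the strains that alters how reads map to single genes was not tested. Col11a1 was not called without Tac111 replicates 1 or 2 or B6 replicate 2 (0.0509 to 0.0865) or with the Tac146 libraries added (0.152).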

How the data were processed

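RNA was measured in labial mucosa of the strains Tac111 and B6, with 3 libraries each. The files hold expected counts, which estimate the reads of each gene and can be fractions, as deposited by the authors and per the file headers. Per the labels' protocols, the kit kept strand and selected polyadenylated RNA. The submitters' processing notes name STAR, RSEM and GRCm38. Versions, annotation and the way strand was counted are not given there, so overlapping genes, antisense partners and near copies may share reads. Of the 55450 lines of each file, those of 107 repeated symbols were summed, which left 55342 names. Among these, 27 were written as dates. Each such line was kept apart, with a line number added to its name, and was not summed.

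Rounded expected counts of the 6 libraries were fitted with edgeR 4.0.16 in R 4.3.3, with a mean for each strain, which leaves 4 residual degrees of freedom. The quasi-likelihood test, TMM factors and the filter on low counts that edgeR provides were used. Adjustment was by Benjamini and Hochberg over the 16133 genes tested, and genes with an adjusted p under 0.05 are called. Dividing the absolute log2 fold change by the square root of F gave the SE. Libraries of a strain were compared pair by pair, and their chi-square divided by its degrees of freedom was 15.7 to 59.3, more than counting noise gives. Each library was counted as 1 replicate, though this spread cannot show whether the libraries are separate animals. Floors of 3 counts and exact 95% intervals cover counting error only. The fits were first tested on simulated data. Python 3.11.15, pandas 2.3.3 and matplotlib 3.10.9 made the tables and figures. Positions are those of GENCODE on GRCm38, and promoter windows those of RefSeq on GRCm38.p6, both found by gene symbol.

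The comparison, its gene lists and its tests were chosen with earlier results of these data known. Lists are described by counts and medians and carry no test of their own. A rule named genes. In each direction it took the 12 called genes with the largest fold change, the 10 with the largest difference in CPM and the 12 with the largest fold change in no list. These needed a mean of at least 2 CPM in the strain where they are higher and no overlap between strains, and antigen receptor segments, pseudogenes, predicted genes and genes of the mitochondrial genome did not count. The rule added the members of every list that had the smallest adjusted p (at most 4), called members of symbol families with 8 or more tested genes and 3 or more called, and Rag1, Rag2, Il2rg and Nnt. Genes named beyond the rule were chosen after their values were seen.

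Alternatives were other scaling factors (median-ratio, upper-quartile), DESeq2 1.42.0, no low-count filter or one at 1 CPM, robust dispersions, a replicate block, a fit to all 9 libraries that adds Tac146, each library left out in turn, and for motifs the 150 bases before the start. The Tac146 libraries entered nothing else.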

Additional observations from a re-analysis of the deposited data

How the results depend on the processing

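The counts of called genes (882, with 311 higher and 571 lower) kept within 1.5 times under median-ratio factors, upper-quartile factors, a filter of 1 CPM and robust dispersions. DESeq2 gave 1345 called genes with 903 lower, and no filter on low counts gave 1966, with 720 higher and 1246 lower. All 9 libraries in the fit left 168 higher. Leaving out 1 library at a time gave 365 to 992 called genes, 100 to 360 of them higher and 265 to 701 lower, with fewer samples in each of these fits. The cause of the other shifts was not tested. Of the 266 genes followed through the settings, 75 calls were lost without Tac111 replicate 2, 65 without B6 replicate 2, 55 without B6 replicate 3, 34 without Tac111 replicate 1, 19 without Tac111 replicate 3 and 18 without B6 replicate 1. Adding Tac146 ended 58. The log2 fold changes whose sign turned with 1 library left out belonged to genes that did not pass the test, namely Cma1 (-0.05 to 0.15), Krt4 (-0.43 to 0.03), Trbc2 (-0.07 to 0.20), Psme2 (-0.07 to 0.11) and Psme1 (-0.06 to 0.06). Ptgs1 ranged from -0.20 to -0.00. Psme1 was at 0.03 with upper-quartile factors.

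With the replicate number as a block, 720 genes were called, 286 higher and 434 lower. The numbers are shared by the strains but nothing ties same-numbered libraries together: the correlations of their deviations were -0.116, 0.022 and 0.028 for numbers 1, 2 and 3, and not every library correlated best with its own number.

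With the 150 bases before the start in place of the 300-base window, the share of windows with the interferon motif fell to 40% among interferon genes called lower and to 1.42% among all windows. The share with the STAT6-type palindrome fell to 9.09% (1 of 11 windows) among the IL-4 and IL-13 genes called lower and to 2.29% among all. Depth limits the lymphocyte genes with 3 counts or fewer over the Tac111 libraries, whose folds are given as bounds or with counting intervals.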

Other observations

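A scan of 278 families of symbols with 8 or more tested genes, which used no marker list, put the guanylate-binding proteins first by the share called (7 of 8 lower) and the keratin-associated proteins next (34 of 57 higher). The Snhg host genes (7 of 13 higher), Oas genes (4 of 8 lower) and Sprr genes (6 of 15 lower) came after them. Next were symbols that begin with Lgals (1 of 8 higher and 2 lower), H (15 of 42 lower) and Cd (27 of 81 lower). The interferon regulatory factors (4 of 12 lower) were level with the Cd symbols. Among keratins, 14 of 52 rose and 1 fell. The large families of solute carriers and zinc finger proteins lay below the 5.47% of all tested genes, with 3.02% of 265 and 1.39% of 361 called.

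By annotated class, genes of the processed transcript class were called most often, with 21 higher and 4 lower of 187 tested (13.4%), against 5.44% of 14655 protein-coding genes. Chromosome 16 had the highest share of called genes (9.43% of 530), and chromosome 19 the lowest (3.56%). Keratin-associated genes lie on chromosome 16 among other places.

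On chromosome 4 (GRCm38), 3 of the 7 tested genes from Slc25a34 to Casp9 rose and 2 fell, noticed after their values were seen and with the ends set by called genes. Of all tested genes of the chromosome 5.9% were called. Ddi2, at chromosome 4, 141677549 to 141723419 on the minus strand, was at 92.5, 103 and 103 CPM in B6 and 64.5, 61.6 and 45.7 in Tac111 (edgeR log2 fold change -0.80 with SE 0.13 and adjusted p = 0.00745). Rsc1a1, annotated inside Ddi2 at chromosome 4, 141683851 to 141685599 on the same strand, went the other way, at 5.48, 6.48 and 6.87 CPM in B6 and 13.6, 12.5 and 9.99 in Tac111 (edgeR log2 fold change 0.94 with SE 0.15 and adjusted p = 0.00674). These transcripts overlap, so how reads were split between them is uncertain. Agmat, for which B6 had no count, lies at chromosome 4, 141746672 to 141759263, and Slc25a34, at chromosome 4, 141618824 to 141623821, rose (edgeR log2 fold change 0.77 with SE 0.16 and adjusted p = 0.0249). Casp9, at chromosome 4, 141793612 to 141815976, fell by 0.61 (edgeR adjusted p = 0.0235). Whether the strains differ in sequence there was not tested. Slc25a34 was not called without B6 replicates 2 or 3 (0.0713 to 0.0993) or with the Tac146 libraries added (0.088), nor Casp9 without Tac111 replicate 2 or B6 replicates 1, 2 or 3 (0.0517 to 0.0835).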
